A study of Mus musculus with 4 samples.

Results

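The genes of the autophagy machinery were followed in mouse podocytes given either a mimic of miR-93 or a nontargeting (NT) mimic. The list held 44 genes, chosen by name for their part in autophagy. Their values did not enter the rule, but the choice was made with earlier results of these data known. Of these, 39 were found by name in the authors' gene table, in 40 of its 29286 rows, because Atg4a had 2 rows. A further 4 stood under an older symbol (Atg13 as D2Ertd391e, Vmp1 as Tmem49 in a row shared with Mir21, Tfeb as Tcfeb and Tfe3 as Tcfe3). Their values are given, but they do not enter the counts. Atg14 was not analysed here. All 40 rows had a mean FPKM (sequenced fragments scaled for the length of the transcript and for the size of the library) of at least 1 over both groups, the floor that 10855 rows with a single gene name passed.

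Conditionally immortalised mouse podocytes, the epithelial cells on the outside of the glomerular capillaries, were differentiated for 12 days. The precursor mimics were introduced at 50 nM with Lipofectamine, the miR-93 mimic in 2 libraries and the NT mimic in the other 2, and RNA was taken 48 hours later. Both groups thus share the cell type and the transfection. The libraries hold polyadenylated RNA, so the level of the mature microRNA itself was not measured. The table gave 1 pooled FPKM per gene and group, without values per library. The depth of each library is therefore unknown, no spread between replicates could be computed, and every difference below is a description without a replicate check.

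In the table the groups are named only q1 and q2. The first of them was taken for the miR-93 mimic, since the pair of values of Rps6ka4 (Msk2) is given under group names in the study. Rps6ka4 stood at 9.68 FPKM with the miR-93 mimic and 14.7 FPKM with the NT mimic, and its direction is therefore no independent check of the reading. If the reading were wrong, every direction below would turn round. The strongest class of miR-93 match in the 3′ untranslated region is the 8mer, a full seed match followed by an A. Under this reading, 110 of the 466 rows with an 8mer were lower by 0.5 or more on the log2 scale and 2 were higher. That count does not rest on Rps6ka4. Atg16l1 and Sqstm1, members of the list, are among the 110 rows. The later counts by class of match are therefore no separate check of the reading. Of the podocyte markers, Synpo (158 FPKM in both groups) and Actn4 (219 FPKM with the miR-93 mimic and 218 FPKM with the NT mimic) were abundant. Others over the floor differed more, in both directions. Wt1 had 2.06 FPKM with the miR-93 mimic and 1.42 FPKM with the NT mimic (log2 ratio 0.51), Podxl had 1.66 and 2.33 FPKM in the same order (−0.47), and Cd2ap and Kirrel had log2 ratios of −0.23 and −0.24. In all, 7 of 11 passed the floor, and the sum over the list, most of it Synpo and Actn4, was 456 FPKM with the miR-93 mimic and 469 FPKM with the NT mimic. The slit diaphragm gene Nphs1 had 0.164 FPKM with the miR-93 mimic and 0.0387 FPKM with the NT mimic, Ptpro was lower still, and Tcf21 was listed at 0 in both groups. Of 6 tubule markers, 3 passed the floor, and Aqp1 (385 FPKM with the miR-93 mimic, 340 FPKM with the NT mimic) and Cdh16 (138 and 131 FPKM in the same order) were the highest, with a sum over the list of 555 and 518 FPKM. The third, Lrp2, was lower, with 31.7 FPKM with the miR-93 mimic and 47.5 FPKM with the NT mimic (log2 ratio −0.58). Of 5 mesangial and smooth muscle markers, 3 passed the floor, Pdgfrb (19.96 FPKM with the miR-93 mimic, 19.2 FPKM with the NT mimic), Des (1.78 and 1.02 FPKM in the same order, log2 ratio 0.75) and Gata3 (1.45 and 1.03 FPKM, log2 ratio 0.46), with a sum over the list of 23.3 and 21.3 FPKM. Of 5 leukocyte markers, only Cd68 passed it, with 5.23 FPKM with the miR-93 mimic and 3.81 FPKM with the NT mimic (log2 ratio 0.45). None of 5 endothelial markers passed the floor. The part of this marker pattern in the results was not tested.

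Autophagy carries parts of the cytoplasm to the lysosome inside a double membrane, the autophagosome. The ULK kinases start the process when the growth-sensing kinase complex mTORC1 releases them, a lipid kinase complex marks the membrane, ATG9 and ATG2 proteins supply it with lipid, and conjugation enzymes fix LC3 and GABARAP proteins to it. Cargo receptors then link the freight to LC3. Podocytes are long-lived cells that do not divide and are known for a high basal rate of autophagy. A microRNA lowers mRNAs that pair with its seed, bases 2 to 8 from its 5′ end, mostly in their 3′ untranslated region (UTR). Human ATG16L1 and mouse Ulk1 and Sqstm1 have been described elsewhere as targets of microRNAs with the seed of miR-93.

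The mature miR-93-5p comes from chromosome 5 (138165574 to 138165596, minus strand, GRCm38.p6) and is shown as RefSeq gives it, with its seed in capitals. The same seed is carried by miR-17-5p, which is shown beside it, and by miR-20a-5p, miR-20b-5p, miR-106a-5p, miR-106b-5p and miR-6383.
mmu-miR-93-5p: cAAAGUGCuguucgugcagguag
mmu-miR-17-5p: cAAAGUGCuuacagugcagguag

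In the mRNA, the full match to the seed reads GCACTTT (7mer-m8). It is called an 8mer when an A follows (GCACTTTA), a 7mer-A1 when the A follows only bases 2 to 7 (CACTTTA), and a 6mer when CACTTT stands alone. These letters were searched on the mRNA strand of the longest annotated 3′ UTR of each gene (GENCODE M21, build GRCm38). A gene was classed by its best match, so each gene stands in 1 class. The 5 autophagy genes with an 8mer are shown first, because Atg16l1 and Sqstm1, with some of the lowest log2 ratios of the list, are among them. Each stretch is 30 bases long, with the match in capitals.
Atg16l1: tgtctgtcacacttactttGCACTTTAttt
Sqstm1: ctgtaataaaatggcatatGCACTTTAacc
Ulk1: agctttgtaagtcaccggaGCACTTTAtgc
Atg2b: aggcaacatgtgctgttctGCACTTTAtct
Atg7: acacagcctcggtttaagaGCACTTTAtta

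The next genes carried a 7mer as their best match. Atg2a, with the second lowest ratio of the list, held a full seed match that lacks the A, as did Rb1cc1 (at 2 places) and Tsc1. In Bnip3l and Bnip3 the A was present but the match to base 8 was not.
Atg2a: gggcctctgccctgtctgtGCACTTTcatc
Rb1cc1, first match: taatgagcagtcttcaaaaGCACTTTtcac
Rb1cc1, second match: aacctatgtaatatagtttGCACTTTcaat
Tsc1: gacttcacctgggccttctGCACTTTcctc
Bnip3l: tccctttttggcctgtaagaCACTTTAgag
Bnip3: taatcataatccagttaagaCACTTTAcac

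As a whole the autophagy genes stood close to other expressed genes, and 3 of them, Atg16l1, Atg2a and Sqstm1, were lower with the miR-93 mimic by more than 0.5 on the log2 scale. The log2 ratio of FPKM plus 0.1 (miR-93 mimic over NT mimic) had a median of −0.10 over the 40 rows, against −0.09 over all 10855 rows. It ranged from −0.63 (Atg16l1) to 0.28 (Wipi1). With a log2 ratio of at least 0.5 in size taken as a difference to name, 3 of the 40 rows were lower and 0 were higher, where the background was 3.83% lower and 1.81% higher. At 0.25, 7 rows were lower and 1 was higher, against backgrounds of 17.5% and 6.08%. The ratio was under 0 in 32 rows, against a background of 69.5%. Because most rows of the table lay under 0, 21 of the 40 were below the median of all rows once the ratios were centred on it.

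**Figure D1:**
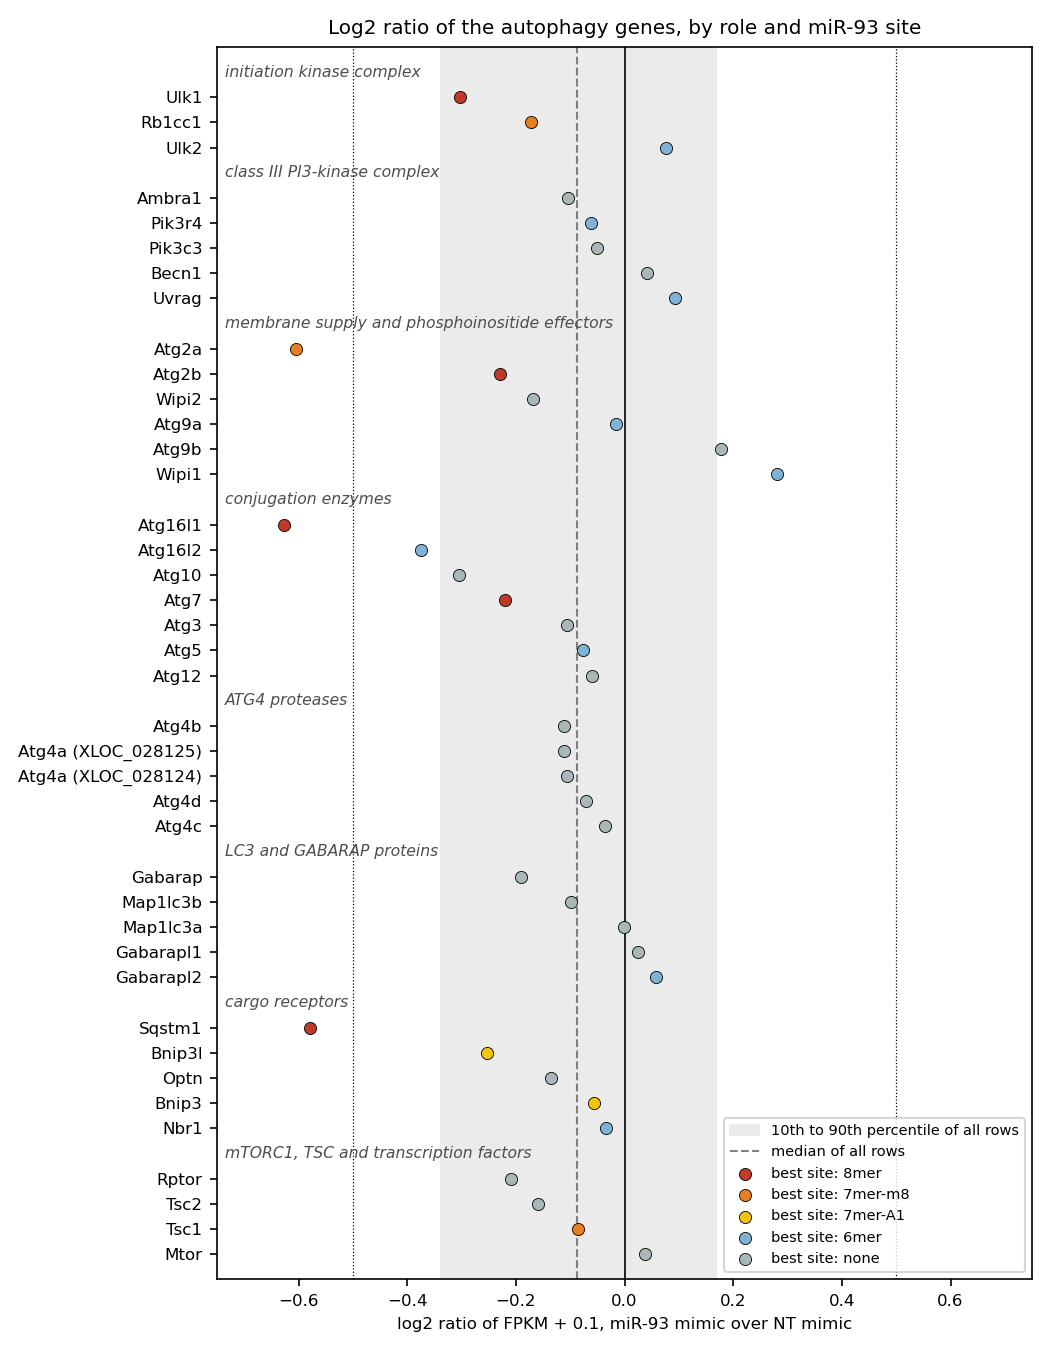
Log2 ratio of FPKM plus 0.1, miR-93 mimic over NT mimic, for the 40 autophagy rows, grouped by role and coloured by the best miR-93 seed match. The grey band runs from the 10th to the 90th percentile of all 10855 rows, dotted lines mark 0.5 in either direction, and Atg16l1, Atg2a and Sqstm1 alone lie past −0.5.

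Read against rows of similar level, 4 of the 40 autophagy rows lay below the 10th percentile of their level class and 1 above the 90th. By definition, 10% of all rows lie on each of these sides, so the count below was no larger than the background. Among rows with a mean FPKM from 1 to 10, the middle 80% of 5162 rows spanned −0.35 to 0.24, and Atg16l1 and Atg16l2 were below it, out of 15 autophagy rows. From 10 to 100 FPKM it spanned −0.33 to 0.10 over 5037 rows, with Atg2a below and Wipi1 above, out of 21 autophagy rows. Above 100 FPKM it spanned −0.29 to 0.09 over 656 rows, with Sqstm1 below, out of 4 autophagy rows.

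Of the initiation kinase complex, Ulk1 was the lower member. Ulk1, the kinase that starts autophagosome formation, stood at 14.0 FPKM with the miR-93 mimic and 17.3 FPKM with the NT mimic (log2 ratio −0.30). Its paralogue Ulk2 stood at 11.7 FPKM with the miR-93 mimic and 11.1 FPKM with the NT mimic (log2 ratio 0.08). Ulk1 thus lay at percentile 12.2 of all rows and Ulk2 at percentile 81.9, and the 3′ UTR of Ulk1 held an 8mer and a 7mer-A1 where that of Ulk2 held a 6mer. Rb1cc1, the scaffold that holds the complex together, stood at 18.8 FPKM with the miR-93 mimic and 21.2 FPKM with the NT mimic (log2 ratio −0.17). Atg13, the adaptor subunit, was read under its older symbol at 10.2 FPKM with the miR-93 mimic and 10.4 FPKM with the NT mimic, and it held no match.

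The genes of the class III PI3-kinase complex, which makes the lipid mark on the new membrane, were nearly level between the groups. Becn1 (beclin), its regulatory core, stood at 55.6 FPKM with the miR-93 mimic and 54.0 FPKM with the NT mimic (log2 ratio 0.04). The catalytic subunit gene Pik3c3 had 8.87 FPKM with the miR-93 mimic and 9.20 FPKM with the NT mimic, and the regulatory subunit gene Pik3r4 had 8.63 and 9.02 FPKM in the same order. Uvrag, a subunit of the form that acts in later steps, had the highest ratio of this group (33.9 FPKM with the miR-93 mimic, 31.8 FPKM with the NT mimic, log2 ratio 0.09). Ambra1, a regulator that binds beclin, had the lowest (6.08 and 6.55 FPKM in the same order, log2 ratio −0.10). None of the 5 genes held a 7mer or an 8mer in its longest 3′ UTR, although 1 of 3 coding transcripts of Pik3c3, with a shorter UTR, held a 7mer-m8.

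The genes that supply and mark the membrane spread widely, and the highest ratio of the list was among them. Atg2a, which codes for a lipid transfer protein, stood at 8.18 FPKM with the miR-93 mimic and 12.5 FPKM with the NT mimic (chromosome 19, 6241667 to 6262304, mm9), 65.5% of the NT value and a log2 ratio of −0.60. Its paralogue Atg2b stood at 4.42 FPKM with the miR-93 mimic and 5.19 FPKM with the NT mimic (log2 ratio −0.23). The gene with the 7mer-m8 was thus further below the NT value than its paralogue with the 8mer.

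Wipi1, a reader of the lipid mark, was the highest of all 40 rows. It stood at 31.5 FPKM with the miR-93 mimic and 25.9 FPKM with the NT mimic (log2 ratio 0.28, percentile 94.9), and its 3′ UTR held only a 6mer. Wipi2, another reader, which recruits the conjugation machinery, stood at 20.02 FPKM with the miR-93 mimic and 22.5 FPKM with the NT mimic (log2 ratio −0.17) and held no match. The scramblase gene Atg9a was level at 10.9 FPKM with the miR-93 mimic and 11.0 FPKM with the NT mimic, whereas its paralogue Atg9b had 6.15 and 5.43 FPKM in the same order (log2 ratio 0.18). Vmp1, which codes for a membrane protein of the endoplasmic reticulum, was read in the row it shares with Mir21, at 80.1 FPKM with the miR-93 mimic and 87.0 FPKM with the NT mimic.

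The conjugation machinery held the lowest ratio of the list. All its 7 genes had a log2 ratio under 0, beside a background of 69.5%, and 5 of them also after centring on the median of all rows, with Atg5 and Atg12 turning just above it. Atg16l1, which directs LC3 conjugation to the membrane, had the lowest ratio of the whole list. It stood at 7.45 FPKM with the miR-93 mimic and 11.6 FPKM with the NT mimic (chromosome 1, 89652548 to 89688997, mm9), 64.5% of the NT value and a log2 ratio of −0.63, at percentile 1.96 of all rows. Its paralogue Atg16l2 stood at 3.37 FPKM with the miR-93 mimic and 4.40 FPKM with the NT mimic (log2 ratio −0.37), and its best match was a 6mer in a 3′ UTR of 4526 bases. Among the enzymes, Atg7 activates both ubiquitin-like proteins of the pathway and stood at 10.7 FPKM with the miR-93 mimic and 12.5 FPKM with the NT mimic (log2 ratio −0.22). Atg10, which hands Atg12 on to Atg5, stood at 5.11 FPKM with the miR-93 mimic and 6.33 FPKM with the NT mimic (log2 ratio −0.30) without any seed match. Atg3, Atg5 and Atg12 had log2 ratios from −0.11 to −0.06, with Atg12 the most abundant of the conjugation genes at 94.5 FPKM with the miR-93 mimic and 98.5 FPKM with the NT mimic.

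The ATG4 proteases, which trim LC3 before conjugation and release it afterwards, lay in a narrow band. Their 5 rows had log2 ratios from −0.11 (Atg4b) to −0.04 (Atg4c), which after centring ran from −0.02 to 0.05, and none held a match of any class. Atg4b was the most abundant at 17.4 FPKM with the miR-93 mimic and 18.8 FPKM with the NT mimic. The 2 rows of Atg4a lay apart on chromosome X and differed in level, at 2.48 and 10.5 FPKM with the miR-93 mimic against 2.67 and 11.4 FPKM with the NT mimic, but had like ratios (−0.11 each).

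The LC3 and GABARAP genes, whose products coat the autophagosome, were among the most abundant members and differed little between the groups. Gabarap stood at 285 FPKM with the miR-93 mimic and 325 FPKM with the NT mimic (log2 ratio −0.19), and Map1lc3b at 177 and 190 FPKM in the same order (log2 ratio −0.10). Gabarapl1 had 133 FPKM with the miR-93 mimic and 131 FPKM with the NT mimic, Gabarapl2 had 30.8 and 29.5 FPKM, and Map1lc3a was level at 37.8 and 37.9 FPKM. Of the 5, only Gabarapl2 held a seed match, a 6mer.

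**Figure D2:**
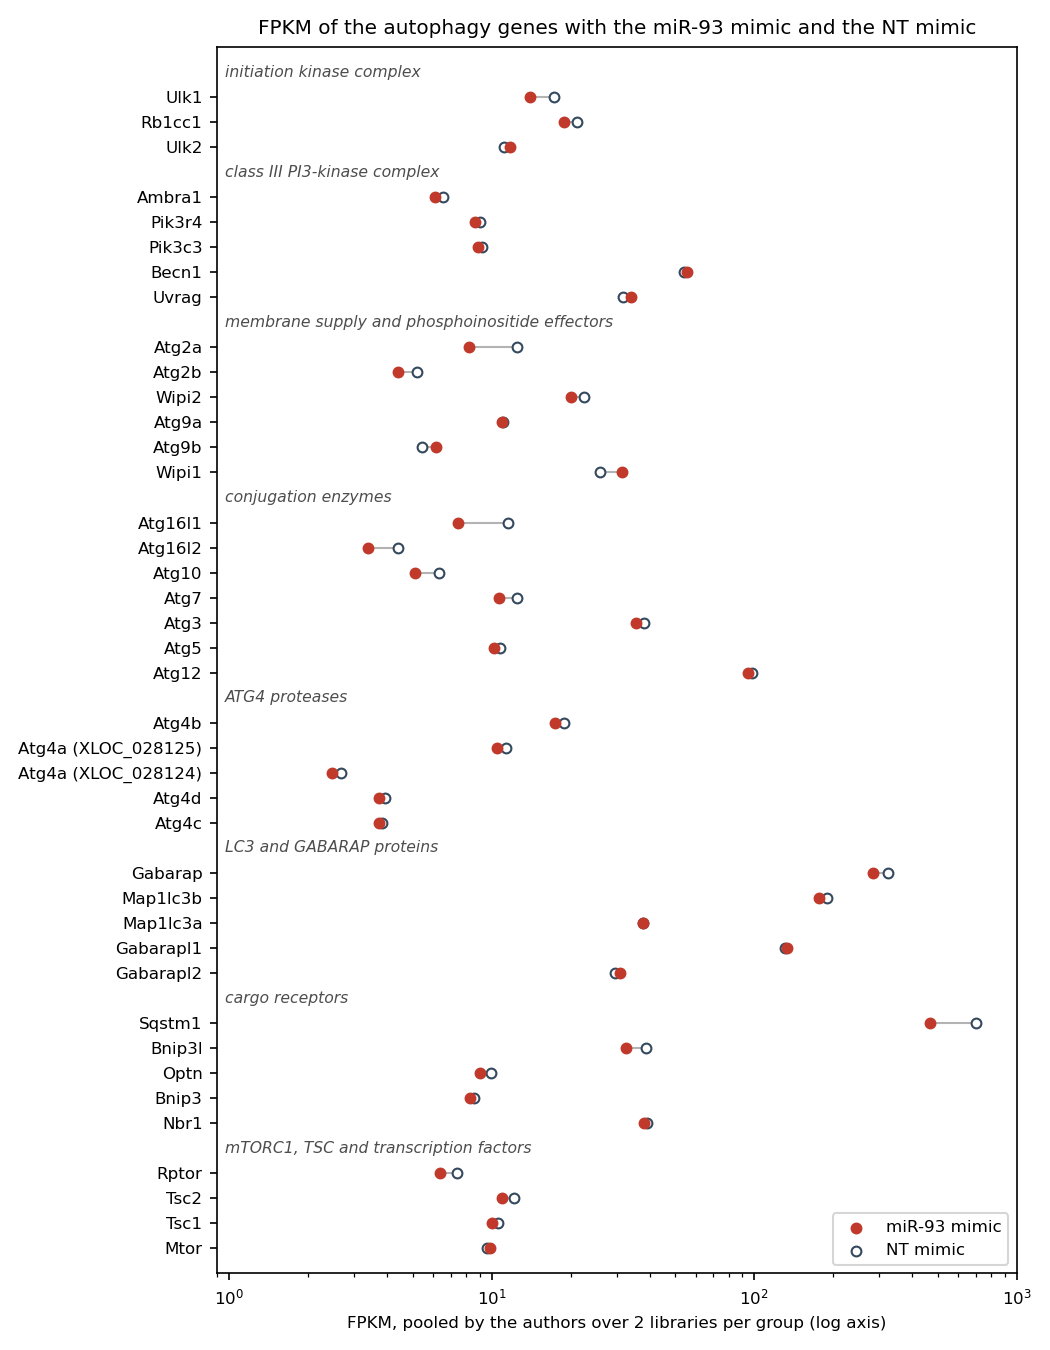
FPKM of the 40 autophagy rows on a log axis, with filled points for the miR-93 mimic and open points for the NT mimic, each the authors' pooled value over 2 libraries and without an error bar. Sqstm1 is the most abundant gene in both groups (470 FPKM with the miR-93 mimic, 701 FPKM with the NT mimic), and the widest gaps are those of Atg16l1, Atg2a and Sqstm1.

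Among the cargo receptors, Sqstm1 stood apart. Sqstm1 (p62), which binds ubiquitin-tagged cargo and LC3 and is itself degraded by autophagy, was the most abundant gene of the list. It stood at 470 FPKM with the miR-93 mimic and 701 FPKM with the NT mimic (chromosome 11, 50013653 to 50024292, mm9), 67.0% of the NT value and a log2 ratio of −0.58, at percentile 2.58 of all rows. The related receptor gene Nbr1 was nearly level at 38.0 FPKM with the miR-93 mimic and 38.9 FPKM with the NT mimic (log2 ratio −0.03), and its best match was a 6mer. Optn (optineurin) had 9.03 FPKM with the miR-93 mimic and 9.93 FPKM with the NT mimic (log2 ratio −0.14). The mitochondrial receptor genes differed from each other, with Bnip3l at 32.5 FPKM with the miR-93 mimic and 38.8 FPKM with the NT mimic (log2 ratio −0.25) and Bnip3 at 8.25 and 8.58 FPKM in the same order (log2 ratio −0.06). Both had a 7mer-A1 as their best match.

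The genes upstream of the machinery showed no row past 0.5. Tsc1 and Tsc2 form the complex that restrains mTORC1. Tsc1, with a 7mer-m8, stood at 9.997 FPKM with the miR-93 mimic and 10.6 FPKM with the NT mimic (log2 ratio −0.09), and Tsc2 at 10.9 and 12.2 FPKM in the same order (log2 ratio −0.16). The kinase gene Mtor stood at 9.89 FPKM with the miR-93 mimic and 9.64 FPKM with the NT mimic, and Rptor, the subunit that picks mTORC1 substrates, at 6.36 and 7.37 FPKM (log2 ratio −0.21). Read under their older symbols, the transcription factor genes Tfeb and Tfe3, which switch on autophagy and lysosome genes, had log2 ratios of 0.05 and 0.03. Tfeb stood at 4.32 FPKM with the miR-93 mimic and 4.16 FPKM with the NT mimic, and Tfe3 at 15.2 and 15.0 FPKM in the same order.

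Autophagy genes with a 7mer or 8mer had a lower median ratio than those without. The 10 genes with such a match had a median log2 ratio of −0.24 and lay between −0.63 and −0.06. The 30 rows without one had a median of −0.07 and lay between −0.37 and 0.28, so the ranges overlapped. All 3 rows lower by 0.5 or more were among the 10, where the background was 8.76% of 2272 rows with a 7mer or 8mer and 2.21% of 7813 rows without. All 10 ratios were under 0, against a background of 78.2%, as were 22 of the 30 without a match, against a background of 67.5%. Of the 10, 8 stayed under 0 after centring, with Tsc1 and Bnip3 turning just above it. Among all rows, the median was −0.14 with such a match and −0.08 without. The 10 autophagy genes held 5 8mers, against 466 among the 2272 rows, so the mix of classes was not the same. The ratios of all rows come from the same pooled values, and the autophagy rows are among them.

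**Figure D3:**
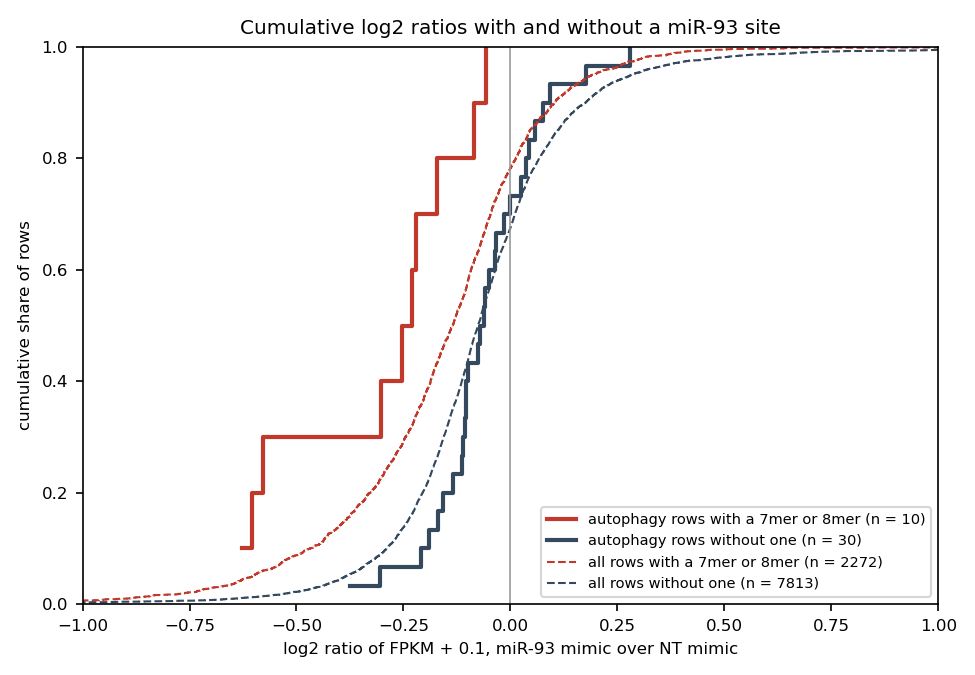
Cumulative share of rows by log2 ratio of FPKM plus 0.1 (miR-93 mimic over NT mimic), for autophagy rows with and without a 7mer or 8mer (solid lines, n = 10 and 30) and for all rows with and without one (dashed lines, n = 2272 and 7813). At the median, the autophagy genes with a match lie furthest to the left (−0.24, against −0.14 for all rows with one). At the low end they stop at −0.63, while both dashed lines reach lower. Of these 10 genes, 5 hold an 8mer, against 466 of the 2272 rows. The autophagy rows without a match follow the other rows without one.

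Within their own class, the 8mer genes of the list spread around the ordinary 8mer gene. All 466 rows with an 8mer had a median log2 ratio of −0.26, with the middle 50% between −0.47 and −0.12, and 23.6% of them were lower by 0.5 or more, as were 2 of the 5 autophagy genes. All 5 of these were under 0, before and after centring, where the background before centring was 87.8%. Counted from the lowest of these 466, Atg16l1 ranked 54 and Sqstm1 ranked 77. Ulk1 (rank 202), Atg2b (253) and Atg7 (263) lay near the middle. Among the 1060 rows whose best match was a 7mer-m8 (median −0.14), Atg2a ranked 42, whereas Rb1cc1 ranked 452 with its 2 matches and Tsc1 ranked 658. Among the 746 rows with a 7mer-A1 (median −0.08), Bnip3l ranked 103 and Bnip3 ranked 425.

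The matches differed in where they lay and in how many coding transcripts of a gene held a 7mer or 8mer. Positions were counted from the first base after the stop codon. The 8mer of Atg16l1 lay at bases 870 to 877 of a 3′ UTR of 1119 bases and 3 of 3 transcripts with an annotated 3′ UTR held one. The 7mer-m8 of Atg2a lay at bases 223 to 229 of 498, in 2 of 2 transcripts. That of Sqstm1 was an 8mer at bases 627 to 634 of 1424, in 2 of 4 transcripts, and that of Ulk1 an 8mer at bases 486 to 493 of 1684, in 1 of 2. The match of Atg7 (bases 877 to 884 of 1591) was found in 2 of 6 transcripts and that of Atg2b (bases 493 to 500 of 937) in 2 of 2. Which of these transcripts the podocytes made was not tested.

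**Figure D4:**
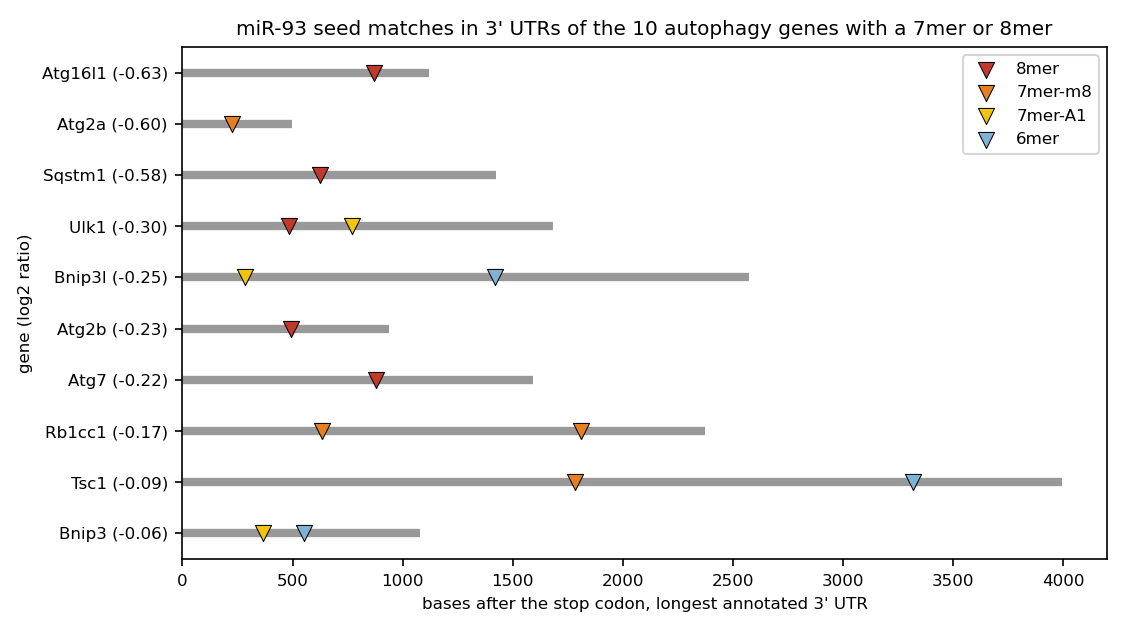
Seed matches along the longest annotated 3′ UTR of the 10 autophagy genes with a 7mer or 8mer, in bases after the stop codon, ordered from the lowest log2 ratio (Atg16l1, −0.63) to the highest (Bnip3, −0.06). Bars are 3′ UTRs, triangles are matches coloured by class, and the 3 genes at the top each hold a single match.

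A and T bases made up 40% of the flanks (30 bases on each side of the match) in Atg2a, 55.0% in Atg16l1 and 58.3% in Sqstm1. The share was 50.0% at the 8mer of Ulk1, 46.7% in Atg2b and 61.7% in Atg7. It was 55.0% and 66.7% at the first and second match of Rb1cc1 and 41.7% at the 7mer-m8 of Tsc1. At the 7mer-A1, it was 61.7% in Bnip3l and 71.7% in Bnip3. The part of this share in the ratios was not tested. The 3′ UTRs of the 40 rows had a median of 1231 bases, close to the 1206 bases of all 10085 rows with one.

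The wider pathway showed the same small differences. Of 63 rows found for other genes of autophagy, its upstream kinases and its fusion step, 60 passed the floor, with a median log2 ratio of −0.09. Of these, 1 was lower and 1 higher by 0.5 or more, beside the backgrounds of 3.83% and 1.81%. Rab33b, a GTPase that binds Atg16l1, was the lower one, with 6.69 FPKM with the miR-93 mimic and 10.1 FPKM with the NT mimic (log2 ratio −0.59), and its 3′ UTR held an 8mer. Deptor, an inhibitor of mTOR read under the symbol Depdc6, was the higher one, with 8.59 FPKM with the miR-93 mimic and 6.01 FPKM with the NT mimic (log2 ratio 0.51) and a 6mer. The most abundant were the lysosome membrane genes Lamp1 (811 FPKM with the miR-93 mimic, 825 FPKM with the NT mimic) and Lamp2 (199 and 229 FPKM in the same order) and the GTPase gene Rab7 (157 and 163 FPKM), with log2 ratios of −0.02, −0.21 and −0.05.

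Reads of 4 members may be mixed with those of another gene, since their locus in the table overlaps that of another row over the floor and the kit is taken not to record strand. These are Atg7 (with Vgll4), Tsc2 (with Pkd1), Atg4d (with Kri1) and Pik3r4 (with LOC100503431). Pkd1 stood at 5.87 FPKM with the miR-93 mimic and 9.82 FPKM with the NT mimic, and its part in the value of Tsc2 was not tested. Bnip3l has a near-identical transcribed pseudogene in the annotation, so its reads could have been divided between copies.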

How the data were processed

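The submitters' processing notes name FastQC, Trimmomatic, TopHat2 2.0.4, Cufflinks and Cuffdiff, with build mm9 (NCBI 37.2 in the study's methods). Libraries were poly-A paired-end TruSeq libraries. The deposited FPKM were computed by the authors with Cuffdiff2, which pooled both libraries of a group into 1 scaled value per gene. The other columns and 4 shorter tables hold the authors' fold changes, p-values and q-values, or repeat rows, and were not used. Titles number the libraries of a group 1 and 2, whereas the descriptions of both read rep 1. The titles were followed. No label says that they came from separate cultures, while the study's methods speak of biological replicates.

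Left out of the comparisons were 3650 unnamed rows, 287 that join several genes and 22 whose name had become a date. The log2 ratio of FPKM plus 0.1 was computed where the mean FPKM reached 1, with a difference named at 0.5. No test was run, because each group has 1 pooled value. 3′ UTRs of at least 30 bases (GENCODE M21) were matched by symbol, or by a RefSeq synonym for 1063 rows, to 10085 of 10855 rows (92.9%). Files and annotation differ in build, so positions of matches are given within the UTR. Functions were tested on simulated data. Python 3.11.15, numpy 2.4.6 and pandas 2.3.3 were used. The named genes are all 44 members, Rps6ka4, and, of the other pathway genes, those past 0.5 and the 3 most abundant. Outside this rule, cell type markers and the genes that overlap a member were named after their values were seen. Members, lists and the rule for named genes were chosen with earlier results of these data known. Alternatives changed the pseudocount, the floor, the centring, the threshold, the 3′ UTR and the classes of match.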

Additional observations from a re-analysis of the deposited data

How the results depend on the processing

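The count of 3 autophagy rows lower by 0.5 or more stood under pseudocounts of 0.01 and 1, without a floor and with a floor of 5 FPKM, with the members under older symbols added and with the 4 overlapping rows left out. These last 2 alternatives were chosen after seeing the data. Centring on the median of all rows left 2 rows lower, since Sqstm1 moved to −0.49. At a threshold of 0.25, 7 rows were lower and 1 was higher. At 1, 0 were lower, since the lowest ratio of the list was −0.63. The median over the members lay between −0.10 and −0.01 over all alternatives, the last after centring. The median of members with a seed match was −0.24 with the shortest annotated 3′ UTR (6 rows, Pik3c3 among them), −0.27 with 8mers and 7mer-m8 only, −0.30 with 8mers only and −0.15 after centring. In their shortest 3′ UTR, Sqstm1, Ulk1, Atg7, Rb1cc1 and Bnip3 held no match. Of the 3 rows lower by 0.5 or more, Atg16l1 and Atg2a thus kept a match under that setting and Sqstm1 lost it. No paired analysis was possible because the table holds 1 pooled value per group, and for the same reason no library could be left out. Depth is unknown, so the precision of a single ratio is unknown.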
